A study of Mus musculus with 6 samples.

Results

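Matrix metalloproteinases (MMPs), ADAMTS proteases and their inhibitors, the TIMPs, were examined in the RNA of mouse mammary epithelial cells (MECs). MMPs and ADAMTSs are zinc-dependent enzymes that are made as inactive proenzymes and, once processed, cut collagens, proteoglycans and other matrix proteins outside the cell. TIMPs are small secreted proteins that block the active site of these enzymes. In the mammary gland this system is known for its part in duct growth and in the remodelling of the matrix around ducts and alveoli, and much of it is made by stromal cells rather than by the epithelium. The members were all protein-coding genes of the count table whose symbol is Mmp, Adamts or Timp followed by a number, which gave 45 of the 55487 genes listed. They comprised 22 MMP genes, 19 ADAMTS genes and 4 TIMP genes.

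The cells came from female BALB/c mice at 10 weeks of age, of which 3 were wild-type (WT) and 3 were IL-21isoTg, with 1 library per mouse. IL-21isoTg mice carry a transgene for a membrane-bound isoform of the cytokine IL-21 that is expressed in T cells; the promoter that drives it is not given in the sources used here. According to the methods of the study, female mice used for mammary tissue were virgin and their estrous stages were left to vary at random. MECs were what remained of the digested gland after magnetic removal of cells that carry CD45 (leukocytes), CD31 (endothelium) or CD140a (fibroblasts). The comparison of the genotypes asks which genes of the epithelium differ at an age before tumors appear.

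Total counts per library were between 15902886 and 25719244. Il21, the gene behind the transgene, had 131 to 795 counts in the IL-21isoTg mice and 0, 0 and 37 in WT mice 1, 2 and 3. Luminal and basal markers were present in every library, with Krt8 at 1630 to 3009 CPM (counts scaled by the TMM-normalized library size) and Krt5 at 131 to 349 CPM. A list of 15 salivary acinar genes took 6.42% to 21.6% of the counts in WT mice and 4.76% to 38.4% in IL-21isoTg mice, the highest share being that of IL-21isoTg mouse 3. On the first principal component, which carried 33.8% of the variance, WT mouse 1 and IL-21isoTg mouse 3 lay at −59.6 and −54.1, apart from the other 4 mice at 12.7 to 43.4. Values without these 2 libraries are given with those of WT mouse 1. Each library is labelled as a mouse of its own, so the spread between libraries includes that between animals.

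Enough reads for a test were found in 36 of the 45 members, namely 14 MMP, 18 ADAMTS and 4 TIMP genes. In edgeR's quasi-likelihood test, adjusted by Benjamini-Hochberg over 17165 genes, 0 of the 36 members had an adjusted p under 0.05, as did 0% of all genes tested, and the smallest adjusted p among members was 0.757. DESeq2's Wald test also called 0 members, where it called 0.467% of all genes, and its smallest adjusted p among members was 0.119. Before adjustment, 7 members had a p under 0.05 in edgeR's test, which is 19.4% of the members against 5.82% of all genes tested. They were 6 members with higher and 1 with lower values in IL-21isoTg MECs, where 3.19% and 2.63% of all genes were. In 8 members, 22.2% of those tested, all mice of one genotype lay above all mice of the other, against 12.1% of all genes. Of these 8, 7 were higher and 1 was lower in IL-21isoTg MECs, where 5.54% and 6.54% of all genes were.

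The log2 fold change (IL-21isoTg over WT) was above 0 in 26 of the 36 members, against 47.9% of all genes, and its median was 0.37 over the members and −0.019 over all genes. By family, the median was 0.34 for MMP, 0.37 for ADAMTS and 0.37 for TIMP genes. With single mice left out the medians ran from 0.12 to 0.37, 0.18 to 0.35 and 0.23 to 0.63, and whether the families differ was not tested.

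**Figure D1:**
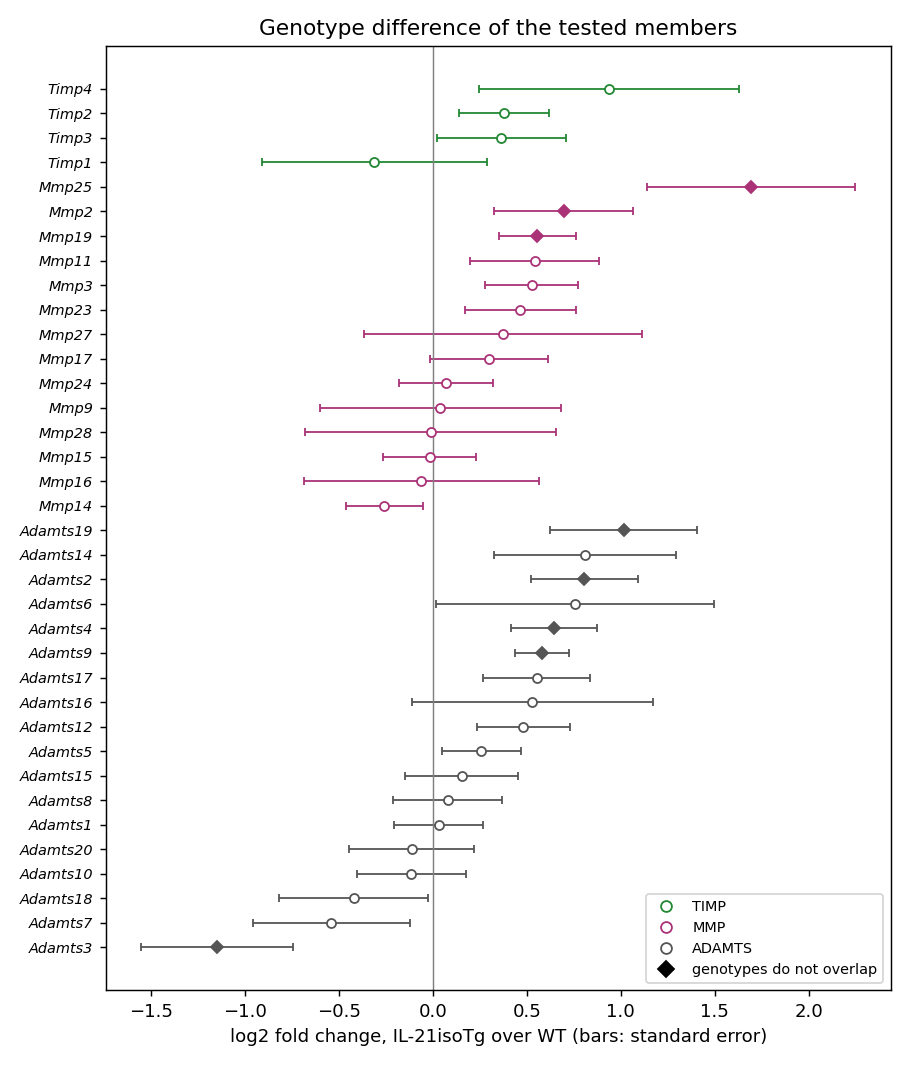
Log2 fold change of each of the 36 tested members (x axis, IL-21isoTg over WT) with its standard error from edgeR's quasi-likelihood fit, by family and sorted within it. Filled diamonds mark the 8 members whose genotypes did not overlap, of which Adamts3 is the one below 0, and open circles mark the others.

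Levels were compared between genes per exon length, as RPKM (CPM per kilobase of exon). Among the MMP genes, Mmp15, Mmp2, Mmp14 and Mmp11 were the most abundant, making up 28.4%, 27.4%, 17.5% and 13.3% of the summed MMP level. Mmp15, Mmp2 and Mmp11 had means over the 6 mice of 42.0, 40.6 and 19.7 RPKM. Mmp3 followed at 9.43 RPKM and Mmp19, Mmp23 and Mmp24 at 3.64, 2.15 and 1.57 RPKM, while the means of the other MMP genes were under 1 RPKM. Adamts1 alone made up 55.5% of the summed ADAMTS level with 54.9 RPKM, followed by Adamts4 with 14.3 RPKM. All other ADAMTS genes were between 0.0361 RPKM for Adamts13 and 5.42 RPKM for Adamts10. Timp2 was the most abundant of all members with 75.4 RPKM, ahead of Timp3 with 39.2, Timp1 with 10.6 and Timp4 with 0.619 RPKM. Neighbours in this order often did not differ beyond the spread between mice, since Mmp15 ranged from 28.2 to 51.6 RPKM and Mmp2 from 14.1 to 60.6 RPKM.

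**Figure D2:**
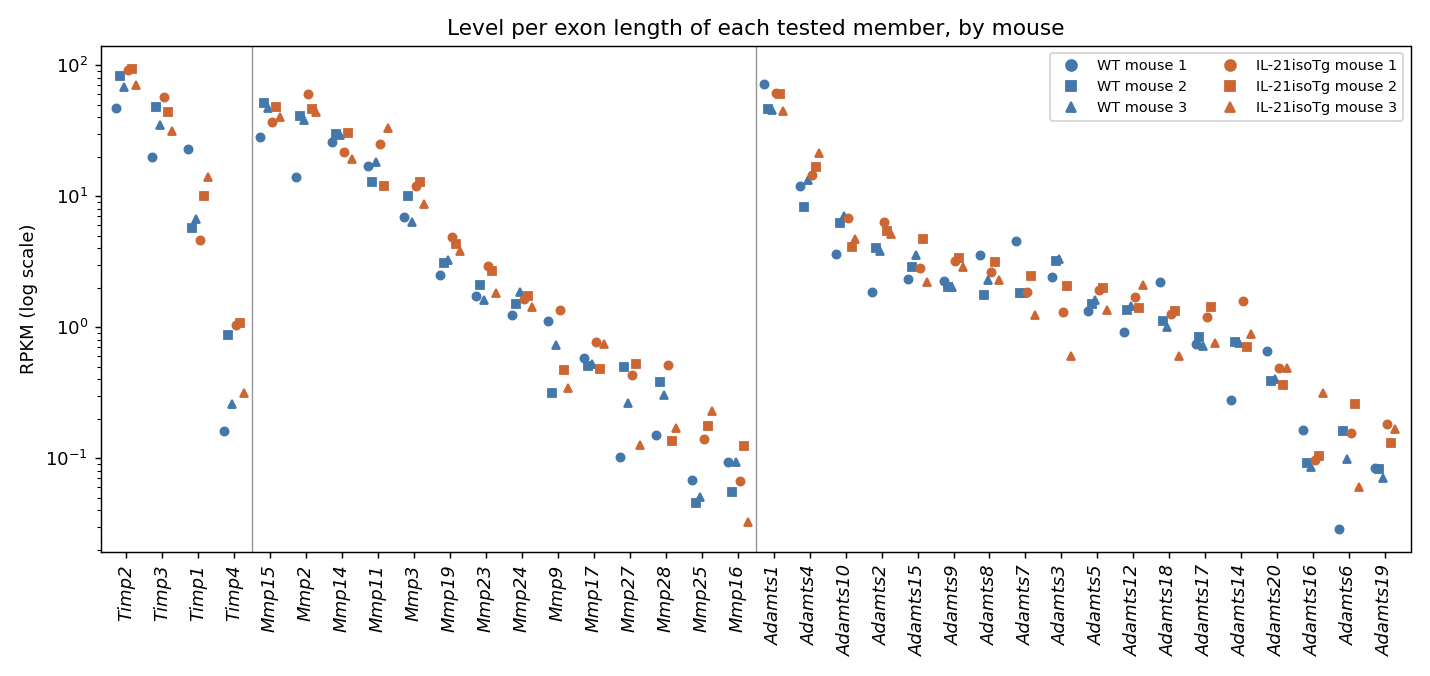
Level of each of the 36 tested members in every mouse (y axis, RPKM on a log scale), by family (TIMP, MMP, ADAMTS) and in order of mean level. Blue symbols are WT and orange symbols IL-21isoTg mice, with 1 symbol shape per mouse number; Timp2, Adamts1, Mmp15 and Mmp2 lie at the top and WT mouse 1 is low for Mmp2, Timp2 and Timp3.

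The membrane-anchored MMPs cut matrix at the cell surface, and Mmp14 is also known as the activator of pro-MMP2. All 7 were tested, and their log2 fold changes ran from −0.26 to 1.69 with a median of 0.071. Mmp15 was at 152, 278 and 252 CPM in WT mice and at 198, 260.4 and 217 CPM in IL-21isoTg mice. Mmp14 was at 154, 178 and 173 CPM in WT mice and at 128, 180.5 and 114 CPM in IL-21isoTg mice. For both genes the genotypes overlapped, and the log2 fold changes were −0.016 (standard error 0.25, edgeR adjusted p = 0.993) and −0.26 (standard error 0.20, edgeR adjusted p = 0.839). Mmp23 was at 4.01, 4.90 and 3.78 CPM in WT mice and at 6.90, 6.25 and 4.29 CPM in IL-21isoTg mice, and Mmp24 at 5.77, 7.06 and 8.64 against 7.65, 8.15 and 6.71 CPM. Their log2 fold changes were 0.47 and 0.071, with overlapping genotypes, and 637 bp of the exons of Mmp24 are shared with BC029722 on the opposite strand. Mmp16 and Mmp17 also overlapped, with log2 fold changes of −0.060 and 0.30.

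Mmp25, a membrane-anchored MMP best known from leukocytes, was the exception in this group, although it rested on few reads. Reads numbered 8, 5 and 6 in WT and 18, 25 and 13 in IL-21isoTg mice. Scaled to CPM the values were 0.361, 0.240 and 0.270 against 0.748, 0.931 and 1.21, so every IL-21isoTg mouse lay above every WT mouse. The log2 fold change was 1.69 (standard error 0.55, edgeR adjusted p = 0.809), the largest among the tested members. Of the neutrophil markers, Ly6g, Mpo, Csf3r and Elane were each at or under 0.271 CPM and S100a8 was at 1.31 CPM or less, a level like that of Mmp25 itself. Ltf, also on that list, was far higher at 143 to 2343 CPM, with overlapping genotypes and a log2 fold change of 0.94. The part of leukocytes in the value of Mmp25 was not tested.

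The gelatinases cut denatured collagen and basement membrane collagen. Mmp2, known as a product of stromal cells, was at 47.6, 138 and 128 CPM in WT mice and at 204, 156 and 148 CPM in IL-21isoTg mice. The genotypes did not overlap, but WT mice 2 and 3 came close to the IL-21isoTg values and WT mouse 1 was far below them. The log2 fold change was 0.70 (standard error 0.37, edgeR adjusted p = 0.809), and without WT mouse 1 it was 0.36. Mmp9, known from leukocytes and activated epithelium, had 13 to 116 counts per mouse and overlapped between genotypes, with a log2 fold change of 0.041.

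Both tested stromelysins were somewhat higher in value in IL-21isoTg MECs without a clear separation. Mmp3, which cuts many matrix proteins and activates other MMPs, was at 12.4, 17.9 and 11.5 CPM in WT mice and at 21.6, 22.9 and 15.6 CPM in IL-21isoTg mice, giving a log2 fold change of 0.53 (standard error 0.25, edgeR adjusted p = 0.809). Mmp11 was at 47.1, 35.7 and 50.9 CPM in WT mice and at 69.5, 33.3 and 92.2 CPM in IL-21isoTg mice. IL-21isoTg mouse 2 was thus the lowest of all mice for Mmp11, and the log2 fold change was 0.54 (standard error 0.34, edgeR adjusted p = 0.817). The mice with the lowest and highest Mmp11, IL-21isoTg mice 2 and 3, also had the lowest and highest salivary acinar sums, 40835 and 568842 CPM. The part of salivary tissue in the value of Mmp11 was not tested. Mmp11 shares 155 bp of exon with Chchd10 on the opposite strand, and although the library kit keeps strand, the sources used here do not say whether reads were counted by strand.

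Among the other secreted MMPs, Mmp19 stood out as one of the 8 members with separate genotypes. It was at 8.89, 10.9 and 11.5 CPM in WT mice and at 17.2, 15.2 and 13.5 CPM in IL-21isoTg mice. The log2 fold change was 0.56 (standard error 0.21, edgeR adjusted p = 0.809). It ended between 0.47 and 0.64 under every alternative that was run, and the gene shares 789 of its 3533 bp of exon with Tmem198b on the opposite strand. Mmp27 and Mmp28 had at most 48 counts per mouse and overlapped between genotypes.

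The ADAMTS genes held 5 of the 8 members with separate genotypes. Adamts9, a proteoglycanase that cuts versican and aggrecan, had the smallest p of all members. It was at 34.1, 30.6 and 30.6 CPM in WT mice and at 48.1, 51.0 and 43.6 CPM in IL-21isoTg mice, that is 31.8 ± 2.05 against 47.5 ± 3.75 CPM (SD, n = 3 each). The log2 fold change was 0.58 (standard error 0.15, edgeR adjusted p = 0.757; DESeq2 adjusted p = 0.119), and it ended between 0.53 and 0.70 under every alternative that was run. Adamts9 spans bases 92772699 to 92943492 of chromosome 6 (GRCm38, minus strand), and 1381 of its 15048 bp of exon are shared with A730049H05Rik on the opposite strand, which had 67 to 230 counts.

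Adamts4, another proteoglycanase, was at 57.2, 39.8 and 64.3 CPM in WT mice and at 69.3, 79.6 and 103 CPM in IL-21isoTg mice. The gap between the highest WT and the lowest IL-21isoTg mouse was small beside the spread within each genotype, and the log2 fold change was 0.64 (standard error 0.23, edgeR adjusted p = 0.809). Adamts1, the most abundant ADAMTS gene and also a proteoglycanase, was at 377, 246 and 241 CPM in WT mice and at 326, 319 and 237 CPM in IL-21isoTg mice. With all mice its genotypes overlapped, and its log2 fold change was 0.031 (standard error 0.24, edgeR adjusted p = 0.985). Its neighbour on chromosome 16, Adamts5, had a log2 fold change of 0.26 with overlapping genotypes. Adamts8 was at 16.4, 8.17 and 10.6 CPM in WT mice and at 12.1, 14.4 and 10.6 CPM in IL-21isoTg mice, and Adamts15 at 24.1, 29.8 and 36.9 against 29.1, 49.0 and 22.8 CPM. With Adamts20 they completed the group, at log2 fold changes of 0.078, 0.15 and −0.11.

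The 3 procollagen N-proteinases, which trim the amino end of fibrillar procollagens, went in different directions. Adamts2 was at 17.3, 37.7 and 35.4 CPM in WT mice and at 59.7, 50.5 and 47.9 CPM in IL-21isoTg mice. WT mouse 1 was again the lowest mouse, and the log2 fold change was 0.81 (standard error 0.29, edgeR adjusted p = 0.809). Adamts3 showed the opposite order, with 13.0, 17.3 and 18.1 CPM in WT mice and 7.11, 11.2 and 3.26 CPM in IL-21isoTg mice. It was the one member whose IL-21isoTg mice all lay below the WT mice, with 16.1 ± 2.72 against 7.19 ± 3.97 CPM (SD, n = 3 each) and a log2 fold change of −1.15 (standard error 0.40, edgeR adjusted p = 0.809). The value stayed between −1.61 and −0.81 under every alternative that was run, and the gene shares no exon sequence with another gene. Adamts14 had a log2 fold change of 0.81 with overlapping genotypes and 32 to 197 counts per mouse.

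Of the remaining ADAMTS genes, Adamts19, a protease with few known substrates, was at 1.17, 1.15 and 0.990 CPM in WT mice and at 2.58, 1.82 and 2.33 CPM in IL-21isoTg mice. These levels came from 22 to 62 counts per mouse, and the log2 fold change was 1.02 (standard error 0.39, edgeR adjusted p = 0.809). Adamts7 and Adamts12, which cut the cartilage protein COMP, had log2 fold changes of −0.54 and 0.48. For Adamts7, WT mouse 1 was high at 28.4 CPM where the other mice had 7.83 to 15.5 CPM, and without that mouse the log2 fold change was 0.053. Adamts10, which binds fibrillin microfibrils, was at 29.6, 51.4 and 58.6 CPM in WT mice and at 56.3, 33.7 and 39.0 CPM in IL-21isoTg mice, with a log2 fold change of −0.11. Adamts6, Adamts16, Adamts17 and Adamts18 overlapped between genotypes, with log2 fold changes of −0.42 to 0.76.

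Of the TIMPs, none had separate genotypes. Timp2 was at 183, 321 and 263 CPM in WT mice and at 355, 364 and 277 CPM in IL-21isoTg mice, its log2 fold change being 0.38 (standard error 0.24, edgeR adjusted p = 0.817). Timp3, which also blocks ADAMTS enzymes and is held in the matrix, was at 163, 389 and 286 CPM in WT mice and at 464, 358 and 256 CPM in IL-21isoTg mice, and a log2 fold change of 0.36 (standard error 0.34, edgeR adjusted p = 0.861). For both genes WT mouse 1 was the lowest of all mice.

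Timp1, the inhibitor known to be induced in inflammation, followed another order. It was at 20.2, 5.09 and 5.98 CPM in WT mice and at 4.07, 8.82 and 12.5 CPM in IL-21isoTg mice, so that WT mouse 1 was the highest. The log2 fold change was −0.31 (standard error 0.60, edgeR adjusted p = 0.937), and without WT mouse 1 it was 0.61. Timp4 was low at 0.947, 5.09 and 1.53 CPM in WT mice and 6.15, 6.29 and 1.87 CPM in IL-21isoTg mice, and its log2 fold change was 0.94 (standard error 0.69, edgeR adjusted p = 0.829). Within each genotype the range of Timp4 was larger than the difference of the means.

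**Figure D3:**
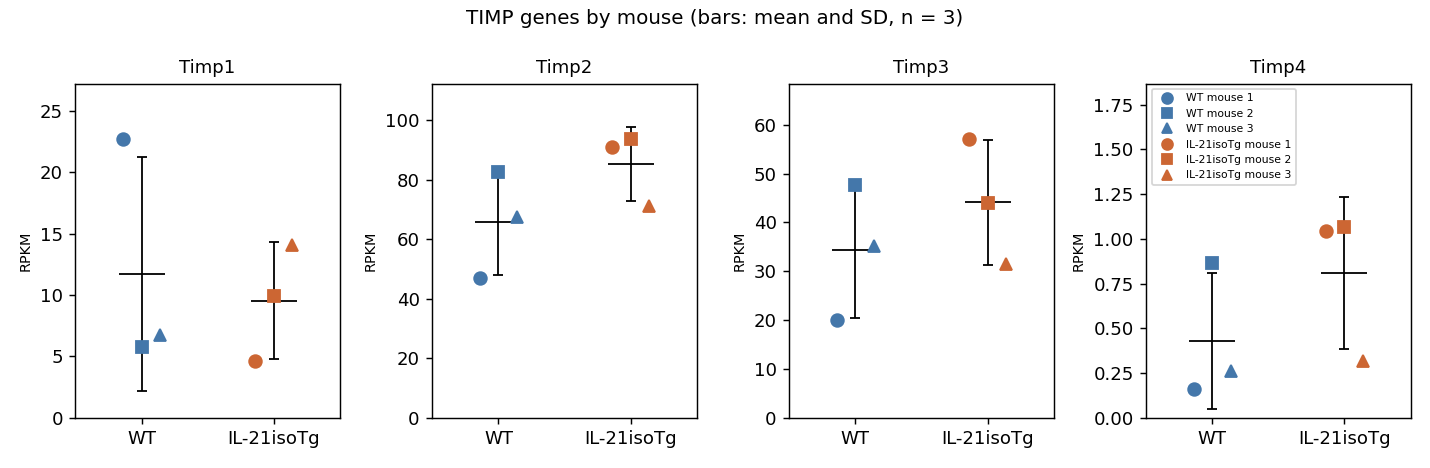
Level of Timp1, Timp2, Timp3 and Timp4 in every mouse (y axis, RPKM from 0), with WT mice in blue, IL-21isoTg mice in orange, and the mean and SD of 3 mice as black bars. The genotypes overlap in all 4 genes; WT mouse 1 is the highest for Timp1 and the lowest for the other 3.

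All TIMP genes but Timp2 lie inside synapsin genes and run against them. Timp1 (chromosome X, 20870166 to 20874735, plus strand) lies within Syn1, Timp3 (chromosome 10, 86300372 to 86349506, plus strand) within Syn3, and Timp4 (chromosome 6, 115241892 to 115252205, minus strand) within Syn2. Timp1 shares no exon sequence with Syn1. Timp3 shares 1733 of its 8144 bp of exon with Syn3, which was counted at 1358 to 6011 reads, and Timp4 shares 90 bp with Syn2. Reads from these shared stretches could have been counted for either gene if the counting did not use strand.

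Summed per length, the TIMP and MMP genes had a similar ratio in all mice, while the ADAMTS genes followed another order. The TIMP sum was 89.8, 137 and 109.7 RPKM in WT mice and 154, 149 and 117 RPKM in IL-21isoTg mice. The MMP sum was 103, 154 and 147 RPKM in WT mice and 169, 160.4 and 155 RPKM in IL-21isoTg mice, and its genotypes did not overlap by a narrow margin. The ratio of the TIMP to the MMP sum was 0.871, 0.889 and 0.744 in WT mice and 0.911, 0.926 and 0.756 in IL-21isoTg mice, with overlapping genotypes. The ADAMTS sum was highest in WT mouse 1 at 110.0 RPKM and lowest in WT mouse 2 at 82.9 RPKM, whereas the TIMP and MMP sums were lowest in WT mouse 1.

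The summed level of fibroblast markers was also higher in IL-21isoTg mice, through 3 collagen genes. In bulk RNA, fewer cells of a type and less RNA per cell cannot be told apart. The summed level of 10 fibroblast markers was 2039, 3614 and 3261 CPM in WT mice and 5167, 4505 and 4516 CPM in IL-21isoTg mice, without overlap. Of the 10 markers, 8 had a log2 fold change above 0, against 47.9% of all genes, with a median of 0.58, and 0 passed edgeR's test. Col1a1 and Col3a1, which encode the main fibrillar collagens, had 1.02 and 0.92 (DESeq2 adjusted p = 0.0364 and 0.0194). The depletion marker of fibroblasts, Pdgfra (CD140a), was still present at 15.8 to 48.5 CPM in WT and 43.7 to 60.4 CPM in IL-21isoTg mice, and Dcn had a log2 fold change of −0.27. The sum of Col1a1, Col1a2 and Col3a1, which are also on the list of matrix substrates, was 1387, 2377 and 2137 CPM in WT mice and 4085, 3585 and 3581 CPM in IL-21isoTg mice. The other 7 markers summed to 651, 1237 and 1124 CPM in WT mice and to 1083, 920.5 and 935 CPM in IL-21isoTg mice, with overlapping genotypes, and most of this sum was Dcn. Among these 7, Pi16, Dpt, Pdgfra, Fap and Lum had log2 fold changes of 0.60, 0.58, 0.57, 0.44 and 0.40, while Pdpn and Dcn were below 0. Only Lum of the 7 had separate genotypes, by a narrow margin.

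Members were also set against these sums, on scales chosen after the data were seen. Divided by the sum of all 10 markers, which itself separated the genotypes, 0 of the 36 members were higher and 7 lower in every IL-21isoTg mouse, but 0.46% and 48% of all genes were, 48.5% in either direction, so this scale moved all genes down and nothing is read from it. Divided by the sum of the 7 markers other than collagens, 9 of the 36 members had separate genotypes, 8 higher and 1 lower, against 6.13%, 3.83% and 2.3% of all genes. Of the 8 members with separate genotypes in CPM, 6 were among these 9, while Adamts4 and Adamts9 were not. Most of this sum was Dcn, which had a log2 fold change of −0.27, while Pi16, Dpt, Pdgfra, Fap and Lum were above 0. The scale is therefore largely a ratio to Dcn and cannot show whether members exceed the fibroblast content.

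On that second scale Mmp2 was 7.30%, 11.2% and 11.4% of the sum in WT mice and 18.9%, 16.9% and 15.8% in IL-21isoTg mice. Adamts2 was 2.66%, 3.05% and 3.15% against 5.51%, 5.49% and 5.12%. Adamts3 was 2.00%, 1.40% and 1.61% against 0.657%, 1.22% and 0.349%. Mmp2 and Adamts2 were thus higher and Adamts3 was lower in every IL-21isoTg mouse on this scale. The part of fibroblasts in the values of these members was not tested.

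**Figure D4:**
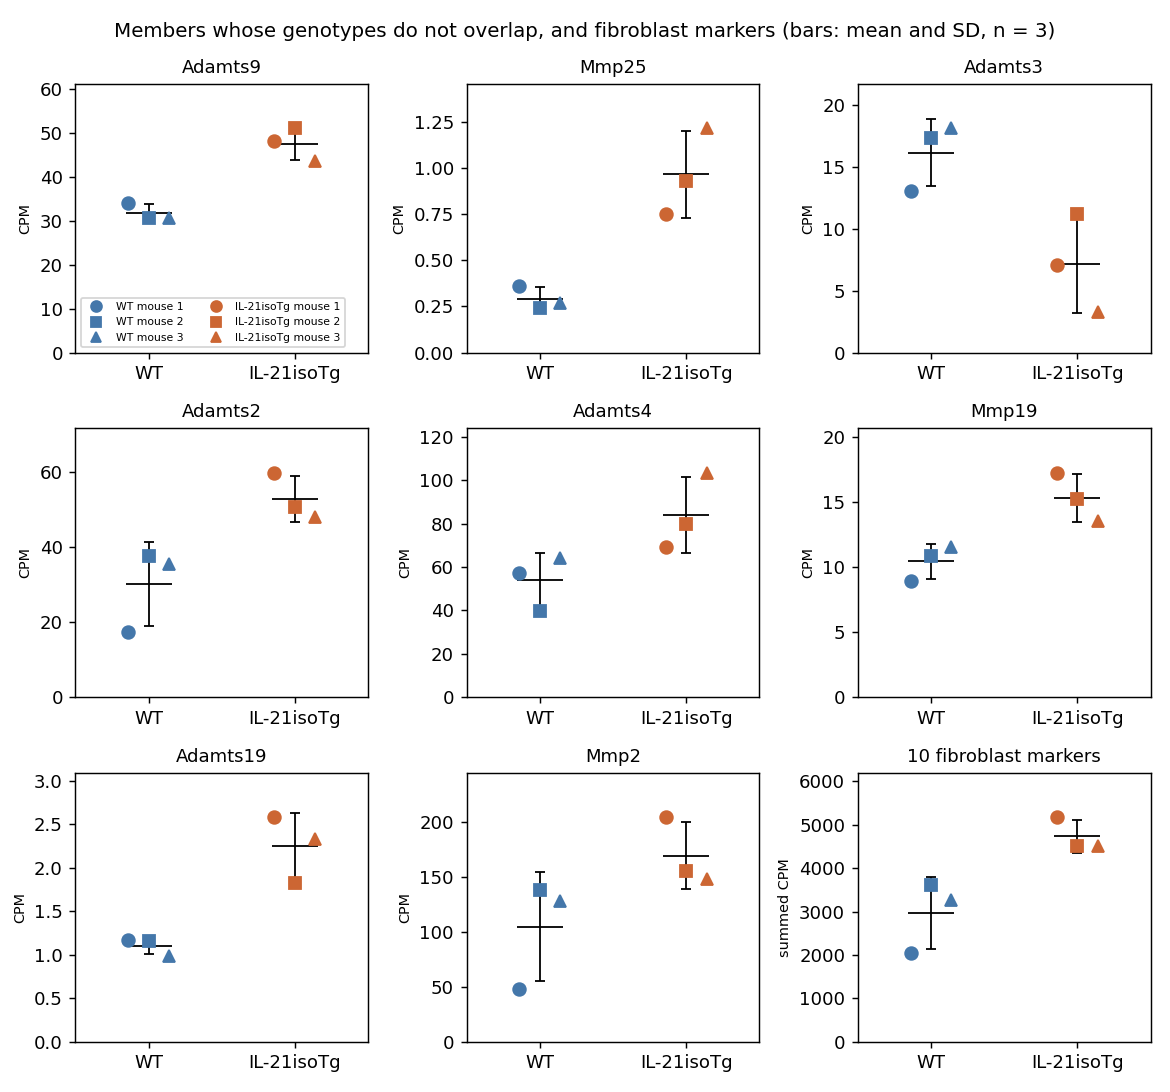
Level in every mouse (y axes, CPM from 0) of the 8 members whose genotypes did not overlap, in order of p, and the summed CPM of 10 fibroblast markers, with the mean and SD of 3 mice as black bars. The 7 members other than Adamts3 and the fibroblast sum are higher in each IL-21isoTg mouse; WT mouse 1 is the lowest for Adamts2, Mmp19, Mmp2 and the fibroblast sum.

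Other cell types were followed with lists of their markers. The endothelial sum was 69.4 to 178 CPM in WT and 110 to 305 CPM in IL-21isoTg mice, with 8 of 8 markers above 0 in log2 fold change, against 47.9% of all genes. For pericytes and smooth muscle the sum was 380 to 852 and 597 to 1050 CPM. Basal epithelial markers summed to 1727 to 2103 CPM in WT and 1964 to 3295 CPM in IL-21isoTg mice, and luminal markers to 6151 to 7149 and 5236 to 8634 CPM. Macrophage markers were low, with sums of 16.7 to 28.3 and 20.4 to 24.6 CPM. Csf1r, Cd68 and Lyz2 were present in every mouse, at 7.83 to 13.6, 2.43 to 6.22 and 2.14 to 5.53 CPM. Itgam and Fcgr1 were at or under 0.271 CPM in every mouse. C1qa and C1qc of that list, which encode complement chains, were higher in every IL-21isoTg mouse, at 0.432 to 1.08 against 1.12 to 2.61 CPM and at 0.135 to 0.480 against 0.707 to 1.40 CPM (edgeR adjusted p = 0.810 and 0.809). C1qb, also on that list, overlapped between genotypes, at 0.450 to 0.767 against 0.374 to 0.746 CPM. Of the 7 macrophage markers tested, 3 had a log2 fold change above 0 and 4 below 0. The neutrophil sum was 145 to 1541 and 768 to 2344 CPM, nearly all of it Ltf. T cell sums were 8.46 to 18.9 and 14.8 to 18.8 CPM, B and plasma cell sums were at most 11.7 CPM, and adipocyte sums 25.8 to 68.4 and 32.1 to 330 CPM. The sums in these lists overlapped between genotypes. Milk protein genes did not overlap, with sums of 538, 523 and 1733 CPM in WT mice 1, 2 and 3 and 8818 to 20366 CPM in IL-21isoTg mice. The lists were not fitted with the members, and their part in the members' values was not tested.

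The filter on low counts removed 9 members, and 7 of them are neighbours. The other two were Adamts13, which cuts von Willebrand factor and had 0 to 8 counts, and Mmp21 with 0 to 3. On chromosome 9 of GRCm38, 9 MMP genes lie within 427 kb, from 7272514 to 7699585, in the order Mmp13, Mmp12, Mmp1b, Mmp3, Mmp10, Mmp8, Mmp27, Mmp20 and Mmp7. Of these, Mmp3 and Mmp27 were tested. Mmp1b and Mmp20 had 0 counts in all 6 mice, where 3 counts correspond to 0.112 to 0.280 CPM. The remaining 5, among them the collagenases Mmp8 and Mmp13, the macrophage elastase Mmp12, the stromelysin Mmp10 and the matrilysin Mmp7, had few reads and these came mostly from 1 mouse.

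Mmp13 had 114 counts in WT mouse 1 and 0 to 8 in the other mice. Mmp12 had 39 counts in WT mouse 1, 17 in WT mouse 3 and 0 to 3 elsewhere. For Mmp10 it was 21 counts in WT mouse 1 and 0 to 3 in the others, and for Mmp7 13 counts and 0 to 4. Mmp8 was the exception, with 12 counts in IL-21isoTg mouse 1 and 5 in WT mouse 1. Their neighbour Mmp3 did not share this order and was highest in CPM in IL-21isoTg mouse 2.

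**Figure D5:**
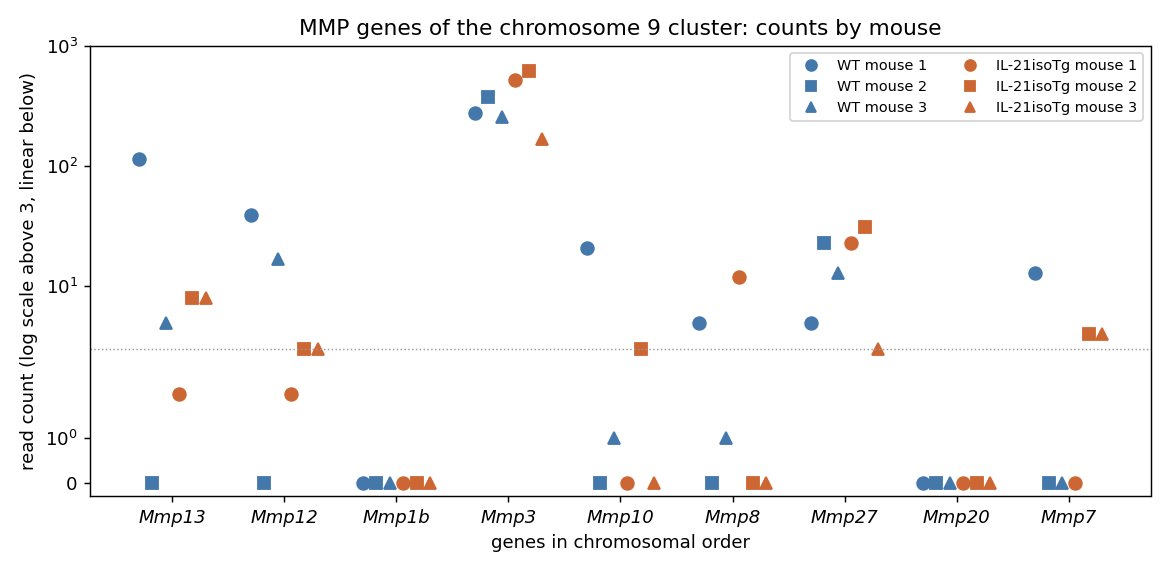
Read counts (y axis, log scale above 3 and linear below, dotted line at 3) of the 9 MMP genes of the chromosome 9 cluster in chromosomal order, with 1 symbol per mouse. WT mouse 1 (blue circle) is the highest for Mmp13, Mmp12, Mmp10 and Mmp7, while Mmp3 is well above the others in all mice.

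The start regions of genes in this cluster are described next, and a link to the high values in WT mouse 1 was not tested. Of the 45 members, 31 have a promoter in the RefSeq table of GRCm38.p6. The letters TGANTCA, the core of an AP-1 site, a recognition sequence of Fos and Jun proteins that reads the same on both strands, occur within the 250 bases before the start of 7 of the 31 members (22.6%) and of 7.82% of all 27025 genes in the table. All 7 are genes of the chromosome 9 cluster, namely Mmp3, Mmp7, Mmp10, Mmp12, Mmp13, Mmp1b and Mmp20, while Mmp8 and Mmp27 of that cluster have no match. The letters TATAAA, on either strand, occur before 8 of the 31 members (25.8%) and before 14.3% of all genes. Below are the 120 bases before the start of Mmp3 and of the 4 genes that were highest in WT mouse 1, all on the plus strand, with the matches in capitals. The windows are chr9:7445702-7445821 for Mmp3, chr9:7502222-7502341 for Mmp10, chr9:7272394-7272513 for Mmp13, chr9:7691970-7692089 for Mmp7 and, for the start of Mmp12 that has the match, chr9:7347254-7347373. The window of the other Mmp12 start, chr9:7344277-7344396, holds no match.
Mmp3: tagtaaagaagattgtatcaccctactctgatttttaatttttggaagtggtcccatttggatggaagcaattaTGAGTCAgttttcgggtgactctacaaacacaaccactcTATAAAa
Mmp10: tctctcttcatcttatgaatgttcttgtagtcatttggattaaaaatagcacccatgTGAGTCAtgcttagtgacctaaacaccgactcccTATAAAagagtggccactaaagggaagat
Mmp13: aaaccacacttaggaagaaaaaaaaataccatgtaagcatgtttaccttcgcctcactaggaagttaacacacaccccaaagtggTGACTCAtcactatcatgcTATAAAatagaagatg
Mmp7: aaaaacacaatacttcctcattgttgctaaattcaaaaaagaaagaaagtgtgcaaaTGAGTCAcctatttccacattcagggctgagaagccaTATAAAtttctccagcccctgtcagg
Mmp12: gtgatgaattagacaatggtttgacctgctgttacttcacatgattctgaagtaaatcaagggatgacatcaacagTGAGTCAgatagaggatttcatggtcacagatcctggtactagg

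The match begins 35 bases before the start in Mmp13, 44 in Mmp12, 46 in Mmp3 and 63 in both Mmp7 and Mmp10. A match of letters is a description of the sequence and was not tested as a binding site.

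WT mouse 1 stood apart in other members too. It was the lowest of the 6 mice in 14 of the 36 tested members (38.9%, against 24.1% of all genes), among them Mmp2, Adamts2, Timp2 and Timp3, and the highest in 6 (16.7%, against 24.7% of all genes), among them Adamts1, Adamts7 and Timp1. The fibroblast sum of this mouse was also the lowest, and so was the sum of its 7 markers other than collagens. With WT mouse 1 and IL-21isoTg mouse 3 both left out, 19 of 36 members had separate genotypes, 18 higher and 1 lower, against 40.3% of all genes, and 0 passed the test. Adamts1 was then one of them, at 246 and 241 CPM against 326 and 319 CPM, with a log2 fold change of 0.41 in place of 0.031 (edgeR adjusted p = 0.537). For Adamts8 the log2 fold change was 0.50 in place of 0.078, for Mmp15 −0.21 in place of −0.016, for Mmp11 0.26 in place of 0.54 and for Mmp2 0.44 in place of 0.70. For Adamts10 it was −0.28 in place of −0.11 and for Mmp24 0.014 in place of 0.071.

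The genes that switch the proteases on or bind them were followed in a list of 15, of which 11 were tested. Of the 11, 0 passed the test, and 2 had an unadjusted p under 0.05, where 5.82% of all genes did. Of these 2, 1 is described here. Pcsk5, a proprotein convertase, was at 10.2, 9.23 and 7.20 CPM in WT mice and at 17.0, 12.5 and 18.0 CPM in IL-21isoTg mice, with a log2 fold change of 0.83 (edgeR adjusted p = 0.809). The membrane inhibitor Reck and the MMP inducer Bsg had 0.33 and −0.029 with overlapping genotypes. Plau and its receptor Plaur, which start plasmin formation at the cell surface, were highest in WT mouse 1 at 224 and 111 CPM, where the other mice had 53.5 to 150.1 and 22.6 to 92.4 CPM.

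Of 11 ADAM protease genes, 10 were tested and 0 had an unadjusted p under 0.05 (5.82% of all genes), with log2 fold changes of −0.33 for Adam10 to 0.89 for Adam8. The 7 ADAMTS-like genes, which lack the protease domain, were all tested and all had a log2 fold change above 0 (47.9% of all genes), with a median of 0.38. Adamtsl4 was the one of the 7 whose genotypes did not overlap, where 12.1% of all genes did not. It was at 7.80, 21.5 and 24.8 CPM in WT mice and 30.1, 26.8 and 31.8 CPM in IL-21isoTg mice (edgeR adjusted p = 0.809).

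The matrix proteins that these enzymes cut were followed in a list as well. Of 19 substrate genes, 16 were tested, 0 passed edgeR's test and 5 passed DESeq2's, namely Spp1, Col1a1, Col3a1, Eln and, with lower values, Fbn2. Of all genes, DESeq2 called 0.467%. In edgeR's test, 7 of the 16 with higher and 3 with lower values had an unadjusted p under 0.05, where 3.19% and 2.63% of all genes did. Eln, which encodes elastin, was at 53.7, 54.8 and 72.7 CPM in WT mice and at 147, 89.7 and 122 CPM in IL-21isoTg mice, with a log2 fold change of 0.98 (edgeR adjusted p = 0.658; DESeq2 adjusted p = 0.0406). The fibrillin gene Fbn1 had a log2 fold change of 0.86 and Fbn2 one of −2.40 (edgeR adjusted p = 0.782 and 0.400; DESeq2 adjusted p = 0.142 and 4.49e-06). Fbn2, like Adamts3, was lower in every IL-21isoTg mouse. The other genes higher at an unadjusted edgeR p under 0.05 were Spp1, Col1a1, Col1a2, Col3a1 and Col4a2. Their log2 fold changes were 2.84, 1.02, 0.85, 0.92 and 0.43. Col1a2 and Col4a2 did not pass DESeq2's test (DESeq2 adjusted p = 0.128 and 0.572).

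The other 2 that were lower, Comp and Col2a1, which encode cartilage proteins, rested on WT mouse 2 alone. Comp was at 45.5 CPM in that mouse and at 0.180 to 1.40 CPM in the others, and Col2a1 at 35.2 and at 0.187 to 1.01 CPM. Acan, the cartilage proteoglycan and best known ADAMTS substrate, was not tested and had 15.0 CPM in WT mouse 2 and at most 0.223 CPM elsewhere. Versican (Vcan) was highest in WT mouse 1 at 102 CPM, where the other mice had 13.0 to 33.8 CPM, and its genotypes overlapped.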

How the data were processed

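RNA of mammary epithelial cells from 3 WT and 3 IL-21isoTg mice was measured by poly(A)-selected, paired-end sequencing with a directional kit. The authors deposited whole-number read counts per gene and mouse, without normalization. The submitters' processing notes name FastQC 0.11.7, Trimmomatic 0.38, HISAT2 2.1.0, SAMtools 1.9, featureCounts 1.6.3, DESeq2 1.24.0 and the genome mm10, with no role or order. The counts divided by size factors, and the authors' own comparison of the genotypes (fold changes and p-values), were not used here.

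The filter on low counts was filterByExpr (at least 10 counts, and 15 in total) and the scaling TMM. Genotypes, the only term, were tested in edgeR 4.0.16 by the robust quasi-likelihood method in its older (legacy) form. P-values were adjusted by Benjamini-Hochberg over all 17165 genes, with a threshold of 0.05. The standard error is the size of the log2 fold change divided by the root of F. R 4.3.3, DESeq2 1.42.0, limma 3.58.1 and Python 3.11.15 were used, and the fit was tested on simulated data. RPKM used the union of exons in GENCODE M21 (GRCm38), the build that mm10 names. Overlap of genotypes was judged on CPM.

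Total counts per mouse were between 15902886 and 25719244, and a floor of 3 counts is 0.112 to 0.280 CPM, counting error only. Members with values for each mouse were all TIMP genes, the 8 MMP and 8 ADAMTS genes with the highest mean RPKM, and the 8 members with the smallest p, which made 23 genes; single values of other members, and of list genes that were not called, were included once their values had been seen. The members and lists were chosen with earlier results of these data known. Alternatives were other normalizations, filters and tests, a block for the replicate number, and the omission of each mouse. Added after the data were seen were the newer quasi-likelihood method, leaving out 2 libraries together, and the ratios to the fibroblast sum with and without its 3 collagen genes. Results that need certain withheld items are not reported here.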

Additional observations from a re-analysis of the deposited data

How the results depend on the processing

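No member was called under any of the 16 alternatives, and the smallest adjusted p of a described member was 0.119, for Adamts9 with DESeq2. Over all genes, 0 were called in the main comparison, 14 without a filter on low counts, 80 with DESeq2's Wald test, 65 with edgeR's likelihood ratio test, 7 with WT mouse 1 and IL-21isoTg mouse 3 both left out, and 0 to 6 when single mice were left out, the 6 being without WT mouse 3. Of the main comparison's 17165 genes, 999 had an unadjusted p under 0.05. The number of members at an unadjusted p under 0.05 was 7 in the main comparison and 3 to 8 with each mouse left out, 3 without IL-21isoTg mouse 1 and 4 without WT mouse 3. The number of members with separate genotypes was 8 of 36 (12.1% of all genes), and 8 to 14 with each mouse left out. It was 8 of 38 without IL-21isoTg mouse 1 (17.9% of all genes), 9 of 37 without WT mouse 3 (17.9%) and 10 of 36 without WT mouse 1 (26%). It reached 13 of 38 without IL-21isoTg mouse 2 (27.6%), 14 of 38 without WT mouse 2 (22.1%) and 14 of 37 without IL-21isoTg mouse 3 (22.1%). With both libraries left out it was 19 of 36 (40.3%). Groups of fewer mice have less room to overlap, so each count stands beside the share of all genes in the same setting. Why the counts differed between omissions was not tested. The median log2 fold change was 0.37 over all members (0.22 to 0.37 with each mouse left out), 0.34 over MMP genes (0.12 to 0.37, and 0.049 without a filter, which adds genes with few counts) and 0.37 over ADAMTS genes (0.18 to 0.35), and 0.37 over TIMP genes (0.23 to 0.63).

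Of the 23 described members, 15 kept the direction of their log2 fold change under all alternatives. The 8 others changed sign under at least 1. Mmp15, at −0.016, was 0.011 with salivary and milk protein genes removed, 0.018 with limma-voom, 0.021 with the replicate block, and −0.23 to 0.16 with each mouse left out. Adamts7 and Timp1 were 0.26 and 0.22 with both libraries left out, and −0.80 to 0.053 and −0.69 to 0.61 with each mouse left out. With each mouse left out the others were −0.082 to 0.29 for Adamts1, −0.36 to 0.086 for Adamts10, −0.22 to 0.37 for Adamts15, −0.12 to 0.41 for Adamts8 and −0.049 to 0.23 for Mmp24. Without a change of sign, but by over 1.5 times, single omissions moved Timp2 (0.20 to 0.58), Timp3 (0.10 to 0.68), Timp4 (0.56 to 1.96), Mmp2 (0.36 to 0.95), Mmp11 (0.22 to 0.86) and Mmp14 (−0.48 to −0.12). The cause was not tested.

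Same-numbered mice of the 2 genotypes did not deviate together (correlations of −0.22, 0.068 and −0.062), and with the replicate block 0 members were called and 5 had an unadjusted p under 0.05. Counting error limits Mmp25, Adamts19 and the members that were not tested.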
